A study of Canis lupus familiaris with 29 samples.

Results

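Messenger RNA of 9 genes was followed over 29 Affymetrix arrays of MDCK type II cells, a line of epithelial cells from dog kidney. They are the contractile and actin-binding genes ACTA2, TAGLN, ACTN1, FLNA and TPM4 and the YAP/TEAD target genes ANKRD1, CCN1, CCN2 and THBS1. The members were chosen by gene symbol, with earlier results of these data known. Counts of members beside shares of all tested genes are therefore descriptions. Every probe set that the platform annotation gives such a symbol alone was taken. This gave 26 probe sets for the 9 genes, out of 15115 genes with such a probe set on the array. Each gene had at least 1 probe set that reached log2 5 in at least 3 arrays and was therefore tested, 20 probe sets in all, and 7052 genes were tested in the same way. ACTA2 and ANKRD1 passed this filter only through 3D arrays, since ACTA2 reached log2 5 in 12 arrays and ANKRD1 in 6, all of them 3D. Where a gene had several tested probe sets, values are those of the brightest one.

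ACTA2 encodes the smooth muscle form of actin and TAGLN the actin-binding protein transgelin, and both are classical targets of SRF with its actin-sensing partner MRTF. ACTN1 and FLNA cross-link actin filaments, and TPM4 is a tropomyosin that lies along them. YAP and its relative WWTR1 (TAZ) are co-activators that the Hippo kinases hold out of the nucleus, and that bind TEAD factors at genes such as ANKRD1, CCN1 and CCN2 when cells are spread or under tension. The matricellular protein THBS1 (thrombospondin 1) is secreted, as are CCN1 and CCN2, and binds integrins and other receptors at the cell surface.

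The cells were cultured flat on transwell filters (2D) or inside collagen (3D). In either culture they were untreated (control, 4 arrays), treated with hepatocyte growth factor (HGF, 4 arrays), or treated with HGF together with an inhibitor of MEK, the kinase that activates ERK. The inhibitor PD-98059, a flavone, has 4 arrays in 2D and 3 arrays in 3D. The other inhibitor, U0126, is not a flavone and has 3 arrays in either culture. Neither doses nor treatment times are stated in the labels, and nor is whether the arrays of a group came from separate cultures. The p-values therefore measure only how far these arrays of a group spread, and that spread may be technical. HGF is the ligand of the receptor MET, and in collagen it is known for making MDCK cysts extend tubules, while on flat supports it makes the cells spread and scatter.

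Values are the deposited log2 levels per probe set, and a group mean below log2 5 is called dim here, since differences at that level rest on signal near background. A level is compared only with levels of the same probe set. Differences are log2 values ± the standard error from limma, whose spread is pooled over all 8 groups, and a gene that rose or fell had an adjusted p under 0.05.

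Of 8 kidney epithelial markers with a probe set, 6 reached a mean of log2 5 in every group (EPCAM, KRT8, KRT18, CDH16, CLDN4 and MAL2), while CDH1 and PAX8 stayed below it. None of 10 fibroblast markers reached a group mean of log2 5, and 4.28 was the highest value in any array. Of 8 smooth muscle markers only SMTN reached it, in HGF cells of both cultures. Of 6 endothelial markers EGFL7 reached it in every group (7.64 to 10.17) and the other 5 in none. Of 5 macrophage markers CD68 reached it in 2D HGF (5.77, against 2.78 to 3.07 in the other groups) and the other 4 in none. The part of these genes in the results was not tested. The least alike arrays of any group were those of 3D HGF, where the lowest correlation was 0.964 (other groups: 0.987 or more), and replicates 1 and 4 lay farthest from their group mean. An index of RNA quality, the mean excess of 3′ control probe sets over those nearer the 5′ end, ranged from 0.838 in 2D HGF to 1.93 in 3D control. Its ACTB component was 1.77 in 2D HGF and between 2.91 and 3.57 in the other groups. Without ACTB, itself an actin gene, it was 0.368 to 0.399 in the 2D groups and 0.703 to 1.11 in the 3D groups, so it moved with the culture. Where a member's call changed with either index as a covariate, or without both arrays, the changed value stands beside the result.

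**Figure D1:**
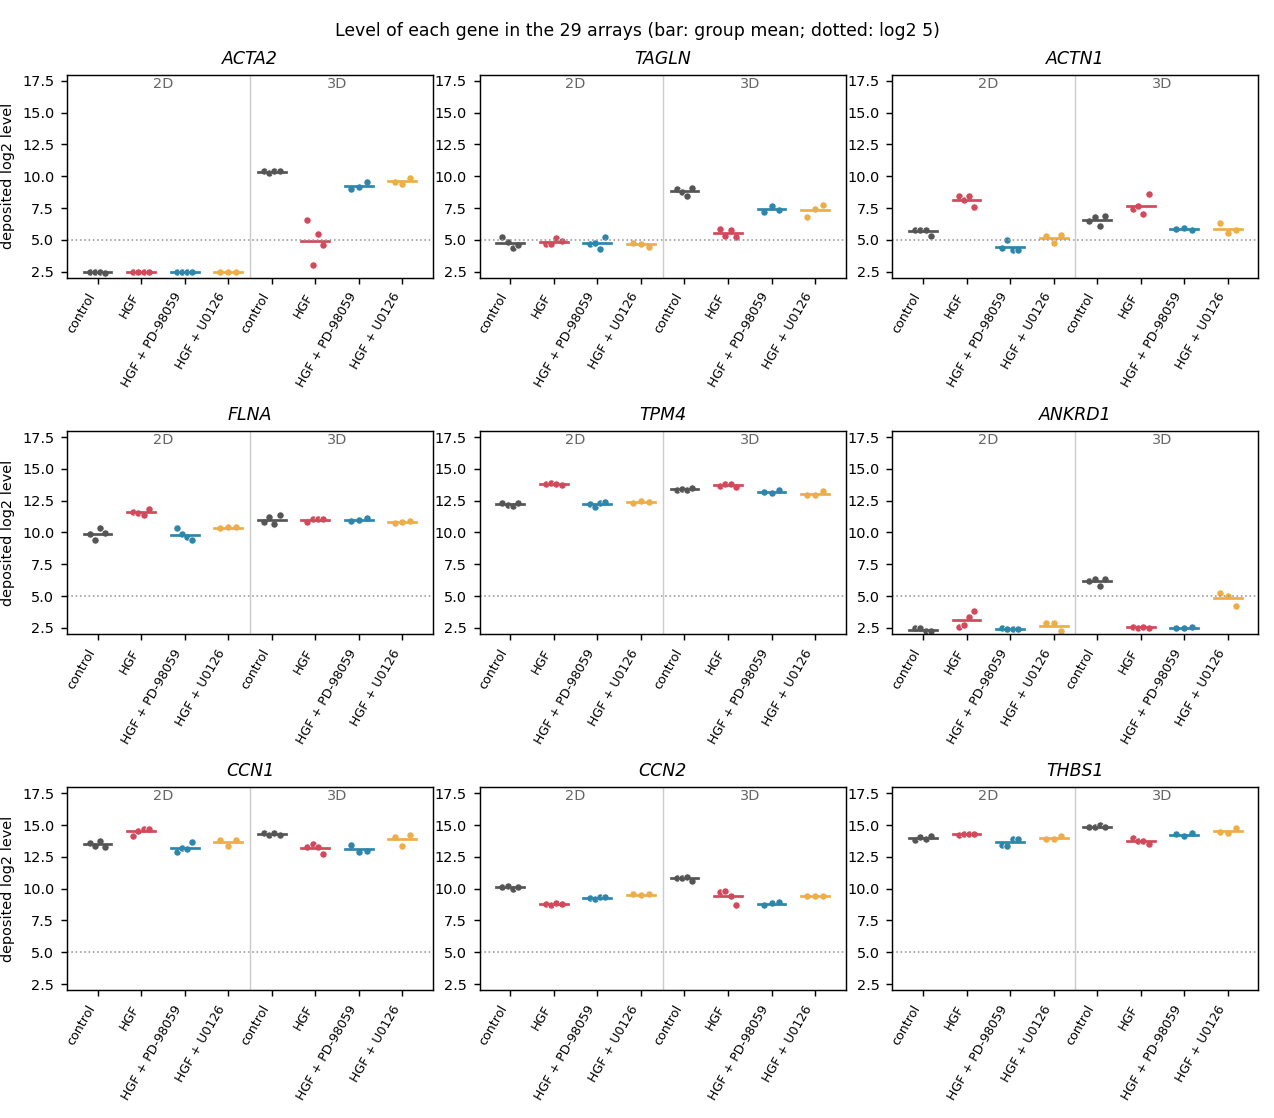
Deposited log2 level (vertical axis) of the brightest probe set of each gene in each of the 29 arrays, by culture and treatment (horizontal axis), with 1 point per array and a bar at the group mean. ACTA2 lay between 10.26 and 10.43 in the 4 arrays of 3D control and between 3.05 and 6.59 in 3D HGF, and the dotted line marks log2 5.

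Control cells in collagen had more of all 9 transcripts than control cells on filters. ACTA2 and ANKRD1 passed the filter only through 3D arrays, so their higher 3D level is a description. The 7 other genes would have passed in either culture alone, and all 7 rose, against 24.5% of all tested genes, while none fell, against 28.5%. Their median difference was 0.88, against -0.02 over all tested genes. ACTA2 stood at 2.46, 2.45, 2.48 and 2.41 in the 2D control arrays and at 10.43, 10.26, 10.38 and 10.38 in the 3D control arrays. The 2D level of this smooth muscle actin was dim, so its difference of 7.91 ± 0.38 (adjusted p = 7.96e-15) has a lower end near background. TAGLN stood at 5.25, 4.84, 4.37 and 4.63 in 2D, again a dim mean, and at 8.99, 8.76, 8.41 and 9.09 in 3D, a difference of 4.04 ± 0.22 (adjusted p = 6.61e-14).

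The 3 other actin-binding genes were above log2 5 in both control groups, ACTN1 narrowly so in 2D, and differed by less. ACTN1 was at 5.78, 5.77, 5.80 and 5.33 in 2D and at 6.46, 6.80, 6.09 and 6.86 in 3D, which is 1.84-fold higher (0.88 ± 0.27, adjusted p = 0.0079). FLNA, whose product binds actin filaments to membrane proteins, was at 9.90, 9.39, 10.37 and 9.99 in 2D and at 10.81, 11.21, 10.65 and 11.33 in 3D (1.09 ± 0.18, adjusted p = 1.36e-05). TPM4 was at 12.28, 12.19, 12.11 and 12.29 in 2D and at 13.32, 13.45, 13.31 and 13.53 in 3D (1.18 ± 0.09, adjusted p = 2.24e-11). All 3D arrays of these genes lay above all 2D arrays, with the narrowest gaps for FLNA and ACTN1. With the mean of the gene's probe sets ACTN1 no longer passed (0.46, adjusted p = 0.052). The other TPM4 probe sets differed in this comparison. Their 2D and 3D control means were 10.51 and 10.50, 9.22 and 9.93, 8.354 and 8.355, and 8.02 and 8.26. The last went from a dim 3.68 to 5.71.

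Among the YAP/TEAD targets, ANKRD1, which encodes an ankyrin repeat protein of stressed muscle and heart, differed most between the control groups. It was dim in 2D, at 2.48, 2.45, 2.26 and 2.22, and stood at 6.19, 6.31, 5.77 and 6.36 in 3D (3.80 ± 0.22, adjusted p = 2.86e-13). CCN1 was at 13.57, 13.38, 13.76 and 13.27 in 2D and at 14.35, 14.24, 14.35 and 14.19 in 3D, or 1.73-fold higher (adjusted p = 0.00119). CCN2, known as connective tissue growth factor, was at 10.16, 10.17, 10.00 and 10.10 in 2D and at 10.80, 10.86, 10.95 and 10.62 in 3D, or 1.62-fold higher (adjusted p = 1.60e-04). THBS1 was at 13.85, 14.10, 13.94 and 14.18 in 2D and at 14.84, 14.88, 14.99 and 14.84 in 3D, or 1.83-fold higher (adjusted p = 7.66e-07). The transcripts of these 3 secreted proteins thus had compact groups that did not overlap. With the RNA-quality index without ACTB as a covariate, CCN1 (0.44, adjusted p = 0.187) and CCN2 (0.23, adjusted p = 0.257) did not pass and the other 7 genes did.

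In 3D, HGF lowered 6 of the 9 genes and raised 2. Those that fell were ACTA2, TAGLN, ANKRD1, CCN1, CCN2 and THBS1, against 33.1% of all tested genes that fell, and those that rose were ACTN1 and TPM4, against 30.3%. The median difference was -1.14, against 0.00 over all tested genes, and without ACTA2 and ANKRD1 it was -1.07, with 4 falls and 2 rises among 7 genes. ACTA2 was at 6.59, 3.05, 5.46 and 4.56 in the 3D HGF arrays, all far below the 3D control arrays but spread over more than 3 log2 units, with 2 of the 4 arrays above log2 5. Its 3D HGF mean was dim, so the difference of -5.45 ± 0.38 (adjusted p = 3.19e-12) has a lower end near background. It ran from -6.00 to -4.82 with each array left out in turn, and was -6.10 without replicates 1 and 4. TAGLN was at 5.84, 5.32, 5.75 and 5.24, a 9.66-fold lower level (-3.27 ± 0.22, adjusted p = 1.31e-12) that did not overlap with control.

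A probe set that the annotation shares between ACTA1 and ACTA2, and that was therefore not counted, gave a like picture. It stood at 8.74, 8.41, 8.28 and 7.75 in 3D control and at 4.60, 4.75, 4.50 and 5.37 in 3D HGF, a difference of -3.49 ± 0.26 (adjusted p = 9.21e-12). Skeletal and smooth muscle actin cannot be told apart with it. In bulk RNA, fewer cells that express a gene and less RNA of it per cell cannot be told apart either.

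The cross-linking and filament genes did not follow ACTA2 in 3D. ACTN1 was at 7.42, 7.65, 7.03 and 8.61 with HGF, above every 3D control array (1.12 ± 0.27, 2.18-fold, adjusted p = 7.84e-04). TPM4 was at 13.69, 13.78, 13.84 and 13.58 (0.32 ± 0.09, 1.25-fold, adjusted p = 0.00222), also with no overlap. FLNA was at 10.82, 11.07, 11.06 and 11.07, inside the range of the 3D control arrays, with a difference of 0.00 ± 0.18 (95% interval -0.36 to 0.37, adjusted p = 0.987). HGF in 3D thus left FLNA in the control range while alpha-actinin and tropomyosin 4 transcripts rose.

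All 4 YAP/TEAD targets fell with HGF in 3D. ANKRD1 was at 2.58, 2.50, 2.58 and 2.47, dim in every array (-3.62 ± 0.22, adjusted p = 2.45e-13). CCN1 was at 13.31, 13.52, 13.31 and 12.74 (-1.07 ± 0.19, 2.09-fold lower, adjusted p = 3.04e-05), and CCN2 at 9.70, 9.84, 9.44 and 8.75 (-1.38 ± 0.14, 2.60-fold lower, adjusted p = 3.49e-09). THBS1 was at 14.02, 13.71, 13.75 and 13.49 (-1.14 ± 0.12, 2.21-fold lower, adjusted p = 3.83e-09). No HGF array of these 4 genes reached a control array, and replicate 4 was the lowest in each. Without replicates 1 and 4 the same 2 genes rose and the same 6 fell, with -0.87 for CCN1 (adjusted p = 0.00167) and 0.79 for ACTN1 (adjusted p = 0.0198).

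On filters, HGF raised 5 of the 9 genes, against 29.1% of all tested genes, and lowered 1, against 27.5%. The median difference was 0.77, against 0.00 over all tested genes. This median is the value of ANKRD1, which was dim in both groups. Without ACTA2 and ANKRD1 the median was 1.01, with 4 rises and 1 fall among 7 genes. ACTA2 lay between 2.44 and 2.48 and TAGLN between 4.64 and 5.16 in the 2D HGF arrays, so both were dim in either 2D group. ACTN1 was at 8.47, 8.11, 8.46 and 7.57, 5.59-fold above control (2.48 ± 0.27, adjusted p = 1.52e-08). FLNA was at 11.62, 11.54, 11.34 and 11.81, 3.17-fold above control (1.67 ± 0.18, adjusted p = 1.21e-08). The filament gene TPM4 was at 13.79, 13.85, 13.81 and 13.75, a tight group 3.00-fold above control (1.58 ± 0.09, adjusted p = 3.00e-14). Each of these 3 genes had its 2D HGF arrays wholly above the 2D control arrays.

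The YAP/TEAD targets split in 2D. CCN1 rose, to 14.12, 14.51, 14.72 and 14.66 (1.01 ± 0.19, 2.01-fold, adjusted p = 7.19e-05), while CCN2 fell, to 8.77, 8.72, 8.85 and 8.81 (-1.32 ± 0.14, 2.50-fold lower, adjusted p = 8.88e-09). These 2 relatives of 1 protein family therefore moved in opposite directions, each with no overlap between HGF and control. ANKRD1 was at 2.55, 2.74, 3.36 and 3.84, which passed the test (0.77 ± 0.22, adjusted p = 0.00463) but was dim in both groups, and did not pass with the RNA-quality index as a covariate (0.60, adjusted p = 0.068). THBS1 was at 14.24, 14.27, 14.33 and 14.28, above every control array, and its difference of 0.26 ± 0.12 did not pass (adjusted p = 0.0575). It passed when only the groups compared were fitted (adjusted p = 0.00956), when the gene's probe sets were averaged (0.37, adjusted p = 0.0052), and without 3D HGF replicate 1 (adjusted p = 0.0412) or 4 (adjusted p = 0.0447), whose spread enters the pooled error. The same held without 2D control replicate 4 (0.32, adjusted p = 0.0369), 2D PD-98059 replicate 2, 3 or 4 (adjusted p of 0.0384 to 0.0478) or 3D U0126 replicate 3 (adjusted p = 0.0486). With the RNA-quality index as a covariate it was 0.50 (adjusted p = 0.00139), and it also passed with the index without ACTB (0.28, adjusted p = 0.0233), without 3D HGF replicates 1 and 4 together (adjusted p = 0.0374), after quantile normalization or median centring (0.20 and 0.31) and with array weights (0.24).

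**Figure D2:**
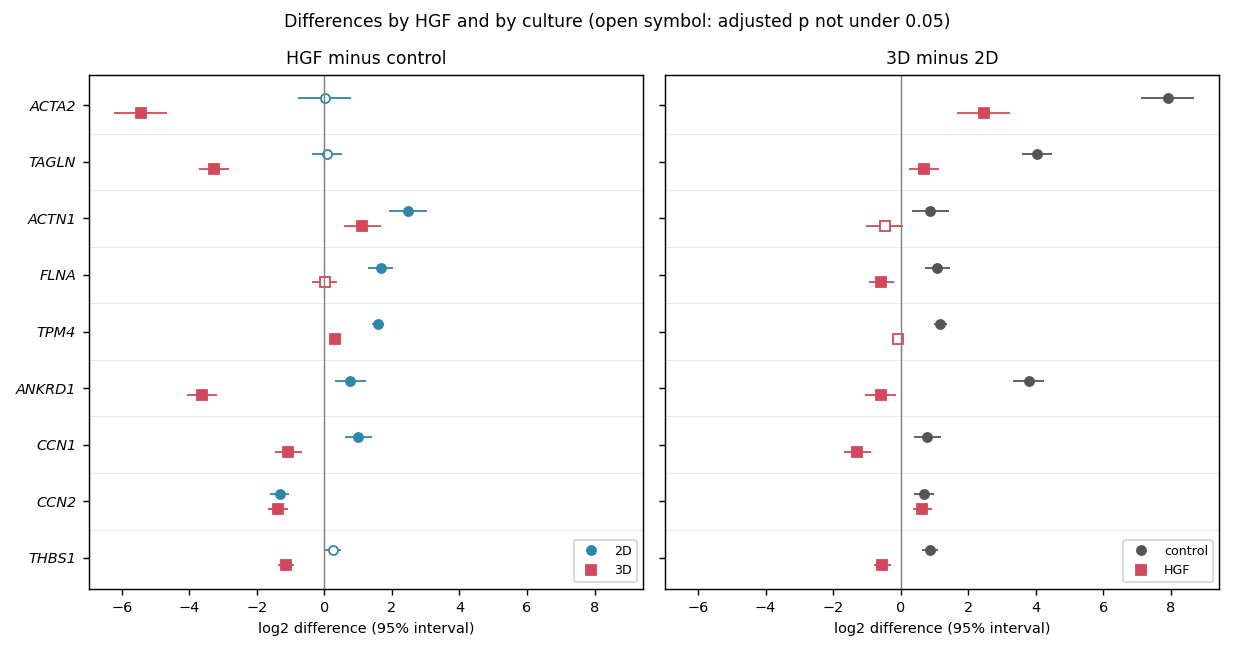
Log2 differences (horizontal axis, with 95% intervals) of the 9 genes, HGF minus control in each culture on the left and 3D minus 2D in control and HGF cells on the right. CCN2 had nearly the same HGF difference in both cultures (-1.32 and -1.38), while CCN1 lay at 1.01 in 2D and -1.07 in 3D, and open symbols mark differences that did not pass.

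The HGF effect itself differed between the cultures in 8 of the 9 genes, all lower in 3D than in 2D, against 28.3% of all tested genes that were lower by this test and 21.0% that were higher. ACTA2 and ANKRD1 passed the filter only through 3D arrays and were dim in 2D, where a fall of either could hardly be seen. Among the 7 other genes, 6 were lower in 3D and none higher. The difference of effects was -5.45 ± 0.54 for ACTA2, -3.35 ± 0.31 for TAGLN and -4.39 ± 0.31 for ANKRD1, whose 2D levels were dim. It was -2.08 ± 0.27 for CCN1 (adjusted p = 7.15e-07) and -1.41 ± 0.16 for THBS1 (adjusted p = 1.27e-07). For the cross-linkers and the tropomyosin it was -1.36 ± 0.38 (ACTN1, adjusted p = 0.00473), -1.66 ± 0.25 (FLNA, adjusted p = 6.31e-06) and -1.26 ± 0.12 (TPM4, adjusted p = 5.28e-09). ACTN1 and TPM4 rose in both cultures, so for them the test says that the rise was larger in 2D. CCN2 was the exception, with a difference of -0.05 ± 0.20 (95% interval -0.46 to 0.35, adjusted p = 0.852).

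With HGF, the gap between the cultures was smaller or ran the other way for the 8 genes whose HGF effect differed. For CCN2 it was 0.65 ± 0.14, beside 0.70 ± 0.14 in control cells. In 3D against 2D with HGF, 3 genes rose (ACTA2, TAGLN and CCN2), against 28.4% of all tested genes, and 4 fell (FLNA, ANKRD1, CCN1 and THBS1), against 37.6%. ACTA2 was 2.46 ± 0.38 higher in 3D (adjusted p = 3.37e-06), but its mean was dim in both groups (4.92 in 3D and 2.46 in 2D). The mean of ANKRD1 was dim in both as well (2.53 in 3D and 3.12 in 2D). Without ACTA2 and ANKRD1, 2 of 7 genes rose and 3 fell. CCN1 was 2.43-fold lower in 3D (-1.28 ± 0.19, adjusted p = 2.11e-06) and THBS1 1.45-fold lower (-0.54 ± 0.12, adjusted p = 2.57e-04). TPM4 did not pass (-0.08 ± 0.09, 95% interval -0.26 to 0.10), and ACTN1 did not either (-0.48 ± 0.27, adjusted p = 0.125). ACTN1 passed without 3D HGF replicate 4 (-0.79, adjusted p = 0.00716) or 2D HGF replicate 4 (-0.67, adjusted p = 0.0401). With either RNA-quality index as a covariate 3 genes passed, ACTA2 (1.57 or 1.54), CCN1 (-1.62 in both) and THBS1 (-0.86 or -0.85), while CCN2 was at 0.21 or 0.19. Without 3D HGF replicates 1 and 4 FLNA (-0.51, adjusted p = 0.0517) and ANKRD1 (adjusted p = 0.0789) did not pass and ACTN1 did.

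The MEK inhibitors were compared with HGF alone, and these comparisons share the HGF arrays with those above, so a value that HGF moved can be set only side by side with the value under the inhibitor. In 3D, PD-98059 cells had more ACTA2, TAGLN and THBS1 and less ACTN1, TPM4 and CCN2 than cells with HGF alone. These 3 rises stand against 28.9% of all tested genes that rose, and the 3 falls against 15.2% that fell. Of all genes that passed, 65.5% rose, a share that was 55.3% after quantile normalization and 48.4% after median centring, and the members' calls were the same under both scalings. With U0126 in 3D, 5 genes rose (ACTA2, TAGLN, ANKRD1, CCN1 and THBS1), against 26.6% of all, and 2 fell (ACTN1 and TPM4), against 25.0%. ACTA2 and ANKRD1 passed the filter only through 3D arrays, so a rise of either is a description. Among the 7 other genes, 2 rose and 3 fell with PD-98059, and 3 rose and 2 fell with U0126.

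ACTA2 was at 8.99, 9.18 and 9.54 with PD-98059 and at 9.57, 9.38 and 9.85 with U0126 in 3D, between the arrays with HGF alone and those of control. Against HGF alone it was 4.32 ± 0.41 higher with PD-98059 (adjusted p = 3.10e-09) and 4.68 ± 0.41 higher with U0126 (adjusted p = 5.04e-10). Against control, PD-98059 with HGF was -1.12 ± 0.41 (adjusted p = 0.032) and U0126 with HGF -0.76 ± 0.41 (adjusted p = 0.16), with no array overlap in either case. The first lost its call without 3D control replicate 1, 3 or 4 or PD-98059 replicate 1 or 2 (differences of -1.12 to -1.0, adjusted p of 0.055 to 0.108). It was also lost with the RNA-quality index as a covariate (-0.83, adjusted p = 0.0938), with the index without ACTB (-0.75, adjusted p = 0.137) and with no filter (adjusted p = 0.0853). The second passed with only the compared groups fitted (adjusted p = 0.00114), where the spread of the 3D HGF arrays does not enter. It also passed with array weights (adjusted p = 0.00906), without 3D HGF replicate 1 (adjusted p = 0.04) or 2 (adjusted p = 0.0202), and without replicates 1 and 4 together (adjusted p = 0.0412).

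TAGLN was at 7.19, 7.64 and 7.33 with PD-98059 and at 6.81, 7.46 and 7.76 with U0126. It lay above HGF alone with both (1.85 ± 0.24, adjusted p = 4.35e-07, and 1.80 ± 0.24, adjusted p = 4.71e-07) and below control with both (-1.42 ± 0.24, adjusted p = 2.62e-05, and -1.47 ± 0.24, adjusted p = 3.03e-05). On the other TAGLN probe sets U0126 lay closer to control (means of 8.31 beside 8.81 in control, and 5.55 beside 6.34). THBS1 was at 14.27, 14.15 and 14.35 with PD-98059 and at 14.46, 14.36 and 14.74 with U0126. It was 1.43-fold higher than with HGF alone with PD-98059 (adjusted p = 0.00162) and 1.71-fold higher with U0126 (adjusted p = 1.15e-05). TAGLN and THBS1 thus held a level between HGF alone and control under both inhibitors. For THBS1 the distance from control was -0.63 ± 0.13 with PD-98059 (adjusted p = 2.56e-04) and -0.37 ± 0.13 with U0126 (adjusted p = 0.0258). The latter lost its call without 3D control replicate 3 (-0.33, adjusted p = 0.069), or U0126 replicate 1 (-0.34, adjusted p = 0.0936) or 2 (-0.29, adjusted p = 0.134). It was also lost with the RNA-quality index as a covariate (-0.24, adjusted p = 0.11), with the index without ACTB (-0.18, adjusted p = 0.303) and with no filter (adjusted p = 0.0636).

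ACTN1 and TPM4, which HGF had raised in 3D, were lower with the inhibitors. ACTN1 was at 5.89, 5.97 and 5.78 with PD-98059 and at 6.30, 5.56 and 5.79 with U0126, 3.48-fold and 3.47-fold below HGF alone (adjusted p = 1.57e-05 and 1.18e-05). TPM4 was at 13.18, 13.10 and 13.34 with PD-98059 and at 12.96, 12.94 and 13.28 with U0126, 1.43-fold and 1.58-fold below HGF alone (adjusted p = 6.50e-05 and 1.59e-06). FLNA was at 10.93, 10.98 and 11.15 with PD-98059 and at 10.77, 10.79 and 10.88 with U0126, and did not pass against HGF alone (0.01 ± 0.19 and -0.19 ± 0.19), although the latter passed with the mean of its probe sets (-0.40, adjusted p = 0.00871). FLNA therefore had overlapping or adjoining arrays in all 4 groups of 3D cells.

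ANKRD1 separated the inhibitors in 3D. It was dim with PD-98059, at 2.52, 2.47 and 2.53, close to HGF alone (-0.03 ± 0.24, 95% interval -0.52 to 0.47, adjusted p = 0.949), and stood at 5.26, 5.04 and 4.25 with U0126 (2.32 ± 0.24, adjusted p = 9.29e-09). U0126 against PD-98059 gave 2.35 ± 0.26 (95% interval 1.82 to 2.87, adjusted p = 8.07e-07), with no overlap, although the mean of 4.85 with U0126 is still just dim. CCN1 was at 13.43, 12.85 and 12.98 with PD-98059 and at 14.04, 13.38 and 14.24 with U0126, a difference of 0.80 ± 0.22 (adjusted p = 0.0189) with 1 array of U0126 inside the PD-98059 range. CCN2 was at 8.69, 8.84 and 8.93 with PD-98059 and at 9.46, 9.44 and 9.42 with U0126, a difference of 0.62 ± 0.16 (adjusted p = 0.0127) with no overlap.

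These 3 YAP/TEAD targets were the members that rose with U0126 against PD-98059 in 3D, against 3.11% of all tested genes, and no member fell, against 9.9%. ANKRD1 passed the filter only through 3D arrays, U0126 arrays among them, so its rise is a description. Among the 7 genes other than ACTA2 and ANKRD1, 2 rose and none fell. Of all genes that passed, 23.9% rose, a share that was 42.0% after quantile normalization and 31.2% after median centring. The CCN1 call was lost without PD-98059 replicate 2 (0.69, adjusted p = 0.0931) or 3 (0.75, adjusted p = 0.089) or U0126 replicate 1 (0.73, adjusted p = 0.0866) or 3 (0.63, adjusted p = 0.0902), with no filter (adjusted p = 0.0548) and with only the compared groups fitted (adjusted p = 0.0992). Against HGF alone, CCN1 rose with U0126 (0.67 ± 0.21, adjusted p = 0.00924), but not without U0126 replicate 3 (0.49, adjusted p = 0.0813) or without 3D HGF replicates 1 and 4 (0.47, adjusted p = 0.102), nor with only the compared groups fitted (adjusted p = 0.0718). CCN2 was lower with PD-98059 than with HGF alone (-0.61 ± 0.15, adjusted p = 0.00175), a call that was lost when only the compared groups were fitted (adjusted p = 0.119), and did not pass with U0126 (0.01 ± 0.15, 95% interval -0.30 to 0.32).

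For the other 6 genes no difference between the inhibitors passed in 3D. The 95% intervals of U0126 minus PD-98059 were -0.55 to 1.26 for ACTA2, -0.64 to 0.65 for ACTN1, -0.63 to 0.22 for FLNA, -0.35 to 0.06 for TPM4 and -0.02 to 0.54 for THBS1. The interval of TAGLN was -0.56 to 0.47 with its brightest probe set. Its other 2 probe sets gave 0.88 and 0.90, both past the threshold, so TAGLN probe sets differ on this point. THBS1 passed with the mean of its probe sets (0.46, adjusted p = 0.017) and after quantile normalization (0.40, adjusted p = 0.00904). Since doses are not given, these are differences between the treatments as used.

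In 2D, PD-98059 lowered 6 genes, against 26.9% of all tested genes, and raised 1, CCN2, against 27.0%. The 6 include ANKRD1, which was dim in both groups. U0126 lowered 4, against 26.8%, and raised CCN2, against 25.0%. ACTN1 was at 4.36, 5.01, 4.20 and 4.18 with PD-98059, a dim mean, and at 5.33, 4.76 and 5.40 with U0126, 3.71 ± 0.27 and 2.99 ± 0.29 below HGF alone on the log2 scale (adjusted p = 8.95e-12 and 2.81e-09). With PD-98059 it was also below untreated cells, by 1.23 ± 0.27 (adjusted p = 0.00123), and every array of that group lay under the 2D control arrays. The second ACTN1 probe set showed no such gap, with means of 5.27 with PD-98059 and 5.32 in untreated cells. FLNA was at 10.34, 9.91, 9.68 and 9.38 with PD-98059 and at 10.32, 10.43 and 10.40 with U0126, 3.36-fold and 2.29-fold below HGF alone (adjusted p = 5.48e-09 and 9.84e-06). TPM4 was at 12.21, 12.01, 12.33 and 12.40 and at 12.29, 12.48 and 12.38, 2.96-fold and 2.68-fold below HGF alone (adjusted p = 3.94e-14 and 1.54e-12). FLNA and TPM4 under either inhibitor overlapped with untreated 2D cells.

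CCN1 was at 12.89, 13.20, 13.11 and 13.69 with PD-98059 and at 13.86, 13.38 and 13.82 with U0126 in 2D, 2.43-fold and 1.76-fold below HGF alone (adjusted p = 3.14e-06 and 0.00179). CCN2 was at 9.28, 9.17, 9.36 and 9.37 with PD-98059 and at 9.55, 9.47 and 9.60 with U0126, 1.42-fold and 1.68-fold above HGF alone (adjusted p = 0.00317 and 1.52e-04). CCN2 was lower than in untreated cells with both, by 0.81 ± 0.14 and 0.57 ± 0.15 on the log2 scale (adjusted p = 8.33e-05 and 0.00888), with no overlap. THBS1 was at 13.43, 13.32, 13.89 and 13.90 with PD-98059, 1.56-fold below HGF alone (adjusted p = 3.79e-05), and at 13.90, 13.94 and 14.11 with U0126 (-0.30 ± 0.13, adjusted p = 0.0532). The latter passed without 3D HGF replicate 1 or 4, any 2D PD-98059 array, 3D U0126 replicate 3 or 2D U0126 replicate 3 (adjusted p of 0.0349 to 0.0494). It also passed with the RNA-quality index as a covariate (-0.48, adjusted p = 0.00175), with the index without ACTB (-0.29, adjusted p = 0.027), without 3D HGF replicates 1 and 4 together (adjusted p = 0.0338), with only the compared groups fitted (adjusted p = 0.00313), after median centring (-0.34), with array weights (-0.31) and with the mean of its probe sets (-0.29). ANKRD1, ACTA2 and TAGLN were dim in all 4 groups of 2D cells. The CCN2 call with PD-98059 was lost with the RNA-quality index as a covariate (0.23, adjusted p = 0.143), as was that of ANKRD1 (-0.56, adjusted p = 0.0788).

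No member passed for U0126 against PD-98059 in 2D, where 1.84% of all tested genes did, 130 of 7052. For the 6 genes above the dim level in at least 1 of the groups the 95% intervals were 0.12 to 1.33 for ACTN1, 0.16 to 0.95 for FLNA, -0.05 to 0.34 for TPM4, 0.03 to 0.89 for CCN1, -0.07 to 0.55 for CCN2 and 0.09 to 0.61 for THBS1. The intervals of ACTN1, FLNA, CCN1 and THBS1 leave out 0 before adjustment, with U0126 the higher in each. FLNA passed without PD-98059 replicate 1 (0.73, adjusted p = 0.0496), and THBS1 after quantile normalization (0.41), with array weights (0.39) or with the mean of its probe sets (0.46).

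**Figure D3:**
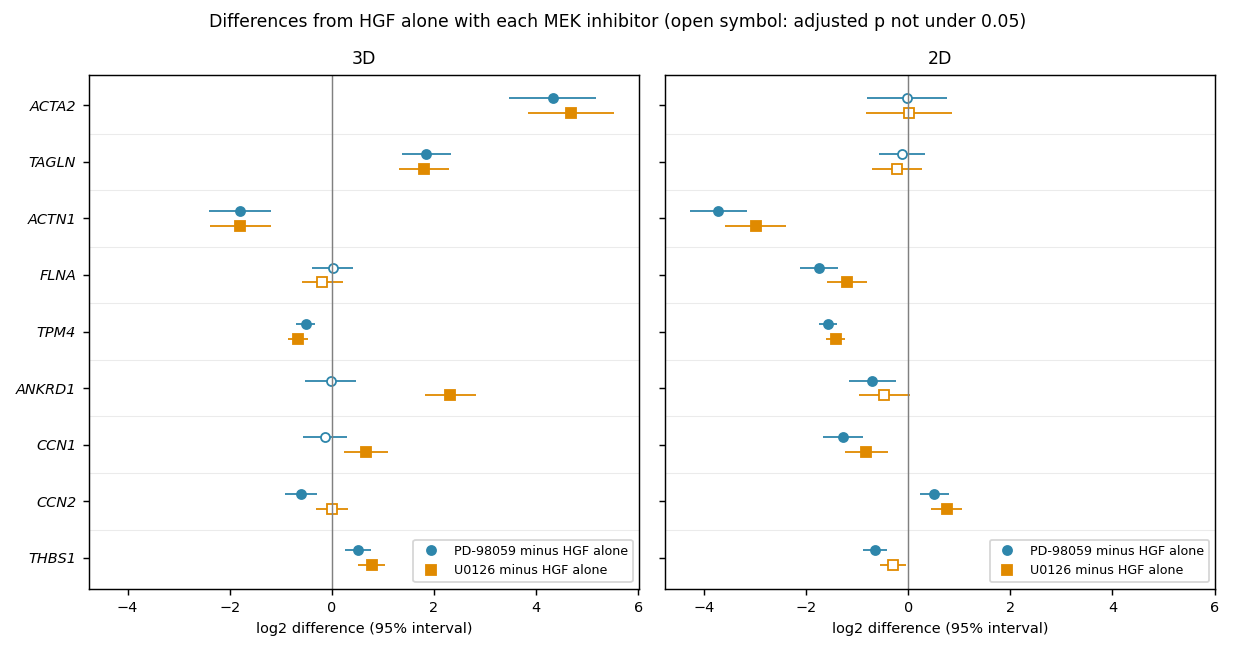
Log2 differences from HGF alone (horizontal axis, with 95% intervals) for PD-98059 and U0126 in 3D on the left and 2D on the right, and open symbols mark differences that did not pass. In 3D, ANKRD1 lies at -0.03 with PD-98059 and at 2.32 with U0126, and in 2D ACTN1 lies at -3.71 and -2.99.

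Set against untreated cells of the same culture, HGF with PD-98059 lowered 6 genes in 3D, against 17.0% of all tested genes, and 3 in 2D (ACTN1, CCN2 and THBS1), against 12.3%. The ACTN1 fall in 2D is that of its brightest probe set, and the second stood at 5.27 beside 5.32 in control. HGF with U0126 lowered 5 in 3D, against 19.5%, and CCN2 alone in 2D, against 8.71%. ACTA2 and ANKRD1 passed the filter only through 3D arrays, control arrays among them, so a fall of either from 3D control is a description. Among the 7 other genes, 4 fell in 3D with PD-98059 and 4 with U0126. No member rose in these 4 comparisons, in which 24.3% and 14.3% (PD-98059) and 14.6% and 9.83% (U0126) of all tested genes rose in 3D and 2D. The THBS1 call in 2D was lost without 2D control replicate 4 (-0.33, adjusted p = 0.0637) or PD-98059 replicate 1 (-0.31, adjusted p = 0.073) or 2 (-0.28, adjusted p = 0.0827), and with only the compared groups fitted (adjusted p = 0.0823). ACTN1 did not pass in 3D with PD-98059 (-0.67, adjusted p = 0.0703) or U0126 (-0.67, adjusted p = 0.0794). It passed with the RNA-quality index as a covariate (-0.84 and -0.86), with the index without ACTB (-0.88 and -0.97) and without 3D HGF replicates 1 and 4 (adjusted p = 0.0311 and 0.0354). With PD-98059 in 3D the largest gaps to control were those of ANKRD1 (-3.65 ± 0.24) and CCN2 (-1.99 ± 0.15, 3.97-fold lower, adjusted p = 1.65e-10). With U0126, by the brightest probe sets, they were those of TAGLN (-1.47 ± 0.24) and CCN2 (-1.37 ± 0.15). The other TAGLN probe sets lay closer to control with U0126 (8.31 beside 8.81 in control, and 5.55 beside 6.34). CCN2 was the member that lay below control in both cultures with HGF alone and with either inhibitor. TPM4 was 1.26-fold below control with U0126 in 3D (adjusted p = 0.00635), but the mean of its probe sets gave 0.09.

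The inhibitor effects differed between the cultures in most members. The PD-98059 effect was higher in 3D for 7 genes, against 24.4% of all tested genes, and lower for CCN2, against 11.6%. Of all genes that passed this test 67.7% were higher in 3D, or 56.9% after quantile normalization, where the members' calls were the same. The U0126 effect was higher in 3D for 8, against 21.6%, and lower for CCN2, against 16.3%. With the RNA-quality index as a covariate 7 were higher and none lower, since ACTN1 (0.87, adjusted p = 0.114) and CCN2 (-0.46, adjusted p = 0.0533) did not pass, and with the index without ACTB ACTN1 did not (0.94, adjusted p = 0.0778). With only the compared groups fitted neither ACTN1 nor CCN2 passed (adjusted p = 0.0775 and 0.0535). ACTA2 and ANKRD1 passed the filter only through 3D arrays. Among the 7 other genes, the main fit gave 6 higher in 3D and 1 lower for each inhibitor. For ACTN1, FLNA and TPM4 a higher effect in 3D means a smaller fall or none, for example -1.80 in 3D and -3.71 in 2D for ACTN1 with PD-98059. For CCN1 with U0126 the effects were 0.67 in 3D and -0.82 in 2D, a difference of 1.48 ± 0.29 (adjusted p = 2.61e-04).

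Between the cultures under an inhibitor, 6 genes rose in 3D with PD-98059, against 28.4% of all tested genes, and CCN2 fell, against 24.3%, a call that was lost without 3D PD-98059 replicate 1 (-0.41, adjusted p = 0.0537). With U0126 5 rose, against 18.4%, and none fell, against 24.7%. ACTA2 and ANKRD1 passed the filter only through 3D arrays, so a rise of either is a description. Among the 7 other genes, 5 rose and 1 fell with PD-98059, and 3 rose with U0126. TPM4 was 1.96-fold higher in 3D with PD-98059 and 1.60-fold higher with U0126, and THBS1 1.54-fold and 1.45-fold. FLNA was 2.28-fold higher with PD-98059 (adjusted p = 1.18e-05), while with U0126 it did not pass (0.44 ± 0.21, adjusted p = 0.0943) although its arrays did not overlap, and it passed with the mean of its probe sets (0.85, adjusted p = 8.73e-06), with either index as a covariate (0.52, adjusted p = 0.0463, and 0.54, adjusted p = 0.047) and with only the compared groups fitted (adjusted p = 0.00302). ACTN1 with U0126 did not pass (0.72, adjusted p = 0.0671), but did with either covariate (0.89 and 0.96) and without 3D HGF replicates 1 and 4 (adjusted p = 0.0296).

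The order of the 8 group means set the genes apart. ACTA2 ran from 3D control (10.36) through 3D U0126 (9.60), 3D PD-98059 (9.24) and 3D HGF (4.92) to the 4 groups of 2D cells (2.44 to 2.47), and no step among the first 3 passed. TAGLN had the same 3D order except that PD-98059 (7.39) and U0126 (7.34) were level. FLNA, TPM4 and ACTN1 were highest in 2D HGF (11.58, 13.80 and 8.15), where TPM4 and ACTN1 did not pass against 3D HGF, the next (13.72 and 7.68). CCN1 was highest in 2D HGF (14.50) and 3D control (14.28), and no step in its order passed. CCN2 was highest in 3D control (10.81) and 2D control (10.11) and lowest in 3D PD-98059 (8.82) and 2D HGF (8.79). THBS1 was highest in 3D control (14.89) and lowest in 2D PD-98059 (13.63), and only its first step, to 3D U0126 (14.52), passed. Its step between 3D HGF and 2D U0126 also passed without 3D HGF replicate 1 (-0.33, adjusted p = 0.0226) and with either covariate (-0.38, adjusted p = 0.00538, and -0.55, adjusted p = 0.00322). ANKRD1 had 3D control at 6.15, and its other 7 means were dim.

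Over the 8 group means, which share all arrays between genes and are given as a description only, ACTA2 and TAGLN ran together (Pearson r = 0.977), as did FLNA and TPM4 (0.947), ACTN1 and TPM4 (0.903) and ACTN1 and FLNA (0.841). ANKRD1 and THBS1 had r = 0.879. ACTA2 had r = 0.08 with ACTN1, and CCN1 had r = 0.25 with CCN2. Of all tested genes, those most like ACTA2 were SAA1 (0.994), CCL2 (0.993) and CCL7 (0.984), an acute-phase protein and 2 chemokines, and those most like TAGLN were IDO1 (0.990), the proteasome subunit PSMB10 (0.982) and CCL7 (0.979). CXCL10 (0.974), another chemokine, was most like ANKRD1, followed by the actin-associated PALLD (0.949) and PARD3B (0.936). The transcription factor KLF6 (0.973), USP12 (0.971) and S100A11 (0.969) were most like ACTN1.

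For FLNA the most alike were N4BP1 (0.971), MEMO1 (0.959) and the small GTPase RALA (0.957), and for TPM4 they were MAP7D1 (0.988), the cell cycle inhibitor CDKN1A (0.988) and ENTPD3 (0.985). TUFT1 (0.937), the protease CTSK (0.916) and PCNX1 (0.910) were most like CCN1. The cold-inducible RNA-binding gene CIRBP (0.918), TMED6 (0.897) and TACC1 (0.895) were most like CCN2, and GPNMB (0.934), SESTD1 (0.916) and SRPX (0.910) most like THBS1.

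**Figure D4:**
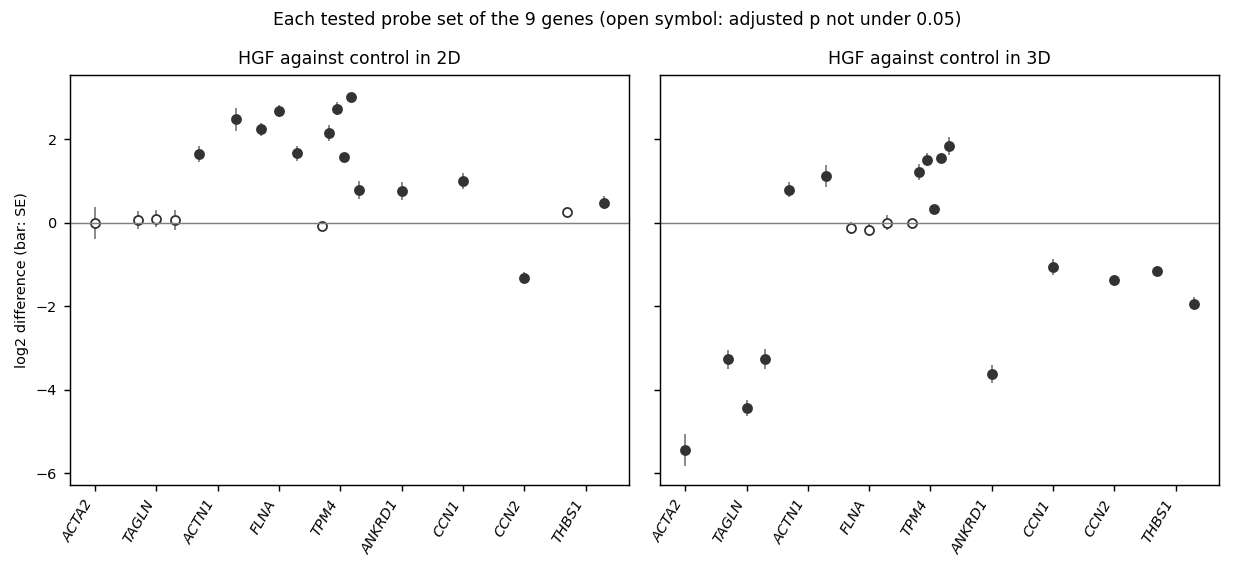
Log2 difference of HGF against control (vertical axis, with the standard error) for each of the 20 tested probe sets, in 2D on the left and 3D on the right, and open symbols mark those that did not pass. For TPM4, 1 of its 6 probe sets lies at -0.07 in 2D and 0.00 in 3D while the other 5 lie above 0 in both.

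Probe sets of a gene mostly moved alike but not by the same amount. The 3 of TAGLN fell by 3.26 to 4.44 on the log2 scale with HGF in 3D. The 3 of FLNA rose by 1.67, 2.24 and 2.68 in 2D and did not pass in 3D (-0.17 to 0.00), and 2 of them fell with U0126 in 3D (-0.57 and -0.43) where the brightest did not pass. For TPM4, 5 probe sets rose with HGF by 0.78 to 3.01 in 2D and by 0.32 to 1.84 in 3D. The remaining probe set was near log2 10.5 in every group, with group means that spanned 0.13. One TPM4 probe set also differed in which culture was higher, since in 3D against 2D with HGF it was 3.09 higher while 3 others were 0.74 to 0.99 lower. No source used here says which transcripts these probe sets detect.

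The second THBS1 probe set gave larger changes than the first, -1.93 for HGF in 3D and 0.48 in 2D, and passed in both. The second ACTN1 probe set rose by 0.80 in 3D and 1.65 in 2D with HGF, and differed by 0.05 between the control cultures. The probe sets of the 9 genes that were not tested stayed below log2 5 in every array.

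Other genes of the same pathways were taken from 5 lists. Tested were 14 of 34 actin and SRF-linked genes, 10 of 25 YAP/TEAD targets, 14 of 21 Hippo components, 11 of 19 TGF-beta genes and 9 of 13 receptors. Of all tested genes, 29.1% rose and 27.5% fell with HGF in 2D, and 30.3% rose and 33.1% fell in 3D. Of 14 further actin and SRF-linked genes tested, 12 rose and none fell with HGF in 2D (median difference 1.01), while in 3D 6 rose and 4 fell (0.01). In 2D the rises included CNN3 (calponin 3, 2.16 ± 0.10), the adaptor PDLIM5 (2.05 ± 0.21) and TAGLN2, a relative of TAGLN (1.97 ± 0.20). In 3D they included SMTN, which encodes smoothelin (2.55 ± 0.17, adjusted p = 1.82e-12, from a dim control level), and PDLIM5 (1.67 ± 0.21), and the falls were talin TLN1 (-0.51 ± 0.11), CSRP1 (-0.45 ± 0.11), PDLIM7 (-0.39 ± 0.13) and TPM1 (-0.27 ± 0.07). SMTN is also the smooth muscle marker that reached log2 5, and it went up with HGF in 3D where ACTA2 and TAGLN fell. SRF itself was 1.17 ± 0.13 higher in 3D than in 2D control cells, rose with HGF in 2D (0.56, adjusted p = 7.5e-04) and did not pass in 3D (-0.12, adjusted p = 0.43).

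Against HGF alone, 13 of the 14 fell with PD-98059 and 13 with U0126 in 2D (medians -0.99 and -0.86), and none rose. In 3D 3 fell with PD-98059 and 7 with U0126, and none rose. Of all tested genes, 26.9% and 26.8% fell with PD-98059 and U0126 in 2D, and 15.2% and 25.0% in 3D. In these 4 comparisons 25.0% to 28.9% of all tested genes rose. SMTN was lower by 2.51 ± 0.19 with PD-98059 and by 2.52 ± 0.19 with U0126 on the log2 scale in 3D. The 3 with PD-98059 became 5 after quantile normalization and 8 after median centring. ACTG1, the cytoplasmic gamma actin, rose with HGF in 2D (0.68, adjusted p = 2.3e-06) and did not pass in 3D (0.09).

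Of 10 further YAP/TEAD targets, 7 rose and 1 fell with HGF in 2D (median 1.11), and 4 rose and 3 fell in 3D (0.07). Of all tested genes, 29.1% rose and 27.5% fell in 2D, and 30.3% rose and 33.1% fell in 3D. EDN1, the vasoconstrictor endothelin 1, fell by 3.34 ± 0.19 on the log2 scale in 3D (adjusted p = 6.54e-14) and by 0.47 ± 0.19 in 2D, and CCDC80 fell in 3D (-1.55 ± 0.11), as did LATS2 (-0.67 ± 0.13), a Hippo kinase that is itself a target. TNFRSF12A, the receptor of TWEAK, rose in both (1.99 ± 0.16 in 3D and 1.58 ± 0.16 in 2D), and tissue factor F3 rose in 2D (2.33 ± 0.11). Against HGF alone in 3D, EDN1 was higher with PD-98059 (2.70 ± 0.21) and U0126 (3.02 ± 0.21), and TNFRSF12A was lower (-1.18 ± 0.17 and -1.57 ± 0.17). This list therefore held genes that fell with HGF in 3D, like the 4 members, and genes that rose. CAV1 did not pass for HGF in either culture.

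Of 14 Hippo components, 3 rose and 5 fell with HGF in 3D and 4 rose and 3 fell in 2D. These counts lay near the shares of all tested genes, of which 30.3% rose and 33.1% fell in 3D and 29.1% rose and 27.5% fell in 2D. YAP1 fell in 3D (-0.48, adjusted p = 1.1e-04) and rose in 2D (0.55 ± 0.10), while WWTR1 fell in 2D (-1.23 ± 0.37) and did not pass in 3D (-0.10). TEAD4, a DNA-binding partner, rose in both (0.91 ± 0.23 in 3D and 2.99 ± 0.23 in 2D) from a dim control level, and TEAD1 rose in 3D (0.56 ± 0.12). WWC1 (KIBRA), which activates the Hippo kinases, fell in both (-1.91 ± 0.09 and -1.54 ± 0.09) and was higher than with HGF alone under either inhibitor in either culture (1.12 to 1.58). STK4, which encodes the Hippo kinase MST1, rose in 3D (2.94 ± 0.36) and was lower there with PD-98059 (-2.67 ± 0.39) and U0126 (-2.32 ± 0.39).

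Of 11 TGF-beta pathway genes, 2 rose and 2 fell with HGF in 3D, and 4 rose and none fell in 2D. The shares of all tested genes were 30.3% and 33.1% in 3D, and 29.1% and 27.5% in 2D. In 2D INHBA, an activin subunit, rose by 5.06 ± 0.35 and LTBP1, which holds latent TGF-beta in the matrix, by 2.84 ± 0.41, both from dim levels. INHBA (5.97 ± 0.35) and LTBP1 (4.33 ± 0.41) were also higher in 3D than in 2D control cells.

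Of 9 receptors that bind CCN1, CCN2 or THBS1, 3 rose and 4 fell with HGF in 3D, and 3 rose and none fell in 2D. The shares of all tested genes were 30.3% and 33.1% in 3D, and 29.1% and 27.5% in 2D. Integrin ITGA6 rose in both (2.98 ± 0.08 and 3.98 ± 0.08), and was lower with each inhibitor in each culture (-2.98 to -4.06). In 3D, ITGB1 rose (2.37 ± 0.34), and ITGB5 (-1.64 ± 0.13), ITGB6 (-1.18 ± 0.13) and ITGAV (-0.74 ± 0.20) fell. Against HGF alone in 2D, 8 of the 9 receptors fell and 1 rose with either inhibitor. Of all tested genes, 26.9% fell and 27.0% rose with PD-98059, and 26.8% fell and 25.0% rose with U0126.

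In 3D against 2D control cells 9 of the 14 actin genes rose and none fell, 6 of the 10 YAP/TEAD targets rose and 1 fell, 4 of 9 receptors rose and 2 fell, and 3 of 14 Hippo components rose and 3 fell. Of 11 TGF-beta genes 5 rose and 1 fell. The shares of all tested genes in this comparison were 24.5% that rose and 28.5% that fell. CSRP1 (1.21 ± 0.11) and the myosin heavy chain MYH9 (1.11 ± 0.20) were among the actin genes that rose, and LATS1 was 2.31 ± 0.13 higher in 3D, from a dim 2D level. With the RNA-quality index without ACTB as a covariate, 3 of the 6 TGF-beta genes passed.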

How the data were processed

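Total RNA was extracted with a Qiagen kit, copied to cDNA, transcribed in vitro and biotin-labelled, per the labels' protocols. The values are log2 levels per probe set as the authors deposited them. The submitters' processing notes name MAS5, GCRMA, Expression Console 1.1 and Partek 6.6, with no role or order. No further normalization was made, and precision is limited by the number of arrays. The table held 43035 probe sets, 111 of them controls. Of the rest, 16571 reached log2 5 in at least 3 of 29 arrays and were tested. Gene symbols come from the platform annotation, and 29254 probe sets name 1 gene, 439 several and 13231 none.

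limma 3.58.1 (R 4.3.3) was fitted to 8 group means over all 29 arrays, with eBayes and a variance trend. Two-sided p-values were adjusted over 16571 probe sets (Benjamini-Hochberg) in each of 19 comparisons and of the 12 remaining pairs of groups. The latter serve for groups next to each other in level. The code was tested on simulated data. Same-numbered arrays did not deviate together, with a correlation above 0.1 in 20 of 54 pairs, except 3D against 2D with HGF and U0126 (0.253, 0.596 and 0.368).

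The members and lists were chosen with earlier results of these data known. Genes named beside them are up to 3 (inhibitors: 2) of a list per direction that passed with no array overlap, the fixed genes ACTG1, TPM1, SRF, CAV1, LATS2, YAP1, WWTR1 and TEAD1, and for each member the 3 genes with the highest Pearson r over 8 group means. Not all genes named by this rule are given, and 1 further gene list is not reported here. Alternatives are given in the closing section.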

Additional observations from a re-analysis of the deposited data

Results flagged for a closer look

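In 2D control, ACTN1 in replicate 4 was 5.33 while the other 3 arrays were 5.77 to 5.80, and in 3D HGF, FLNA in replicate 1 was 10.82 while the others were 11.06 to 11.07. Both gaps exceed the Dixon limit, which chance passes in about 1 of 20 groups, and 45 groups of 4 arrays were examined.

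The effect of HGF differed between 3D and 2D, by the test of the difference in limma, in ACTA2 (-5.45), TAGLN (-3.35), ACTN1 (-1.36), FLNA (-1.66), TPM4 (-1.26), ANKRD1 (-4.39), CCN1 (-2.08) and THBS1 (-1.41). The effect of PD-98059 differed in ACTA2 (4.34), TAGLN (1.97), ACTN1 (1.92), FLNA (1.76), TPM4 (1.05), CCN1 (1.14), CCN2 (-1.12) and THBS1 (1.16). The effect of U0126 differed in ACTA2 (4.67), TAGLN (2.02), ACTN1 (1.19), FLNA (1.01), TPM4 (0.76), ANKRD1 (2.78), CCN1 (1.48), CCN2 (-0.74) and THBS1 (1.07). The inhibitor and HGF effects share the arrays with HGF alone, so their values are not independent. The ACTN1 value for U0126 has an adjusted p of 0.025 and lost its call without any of 3D HGF replicate 3 (0.98), 2D HGF replicate 1 (1.09) or 3 (1.09), 3D U0126 replicate 1 (0.98) or 2D U0126 replicate 2 (0.99). It was also lost with the RNA-quality index as a covariate (0.87, adjusted p = 0.114), with the index without ACTB (0.94, adjusted p = 0.0778), with no filter (adjusted p = 0.066) and with only the compared groups fitted (adjusted p = 0.0775).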

How the results depend on the processing

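Leaving out differences that were dim in every group compared, 103 member differences passed, of which 85 kept direction and call under every alternative run, 17 lost the call under at least 1, and 1 turned. That one is TPM4 in 3D with HGF and U0126 against control (0.087 with the mean of its probe sets). Of the 52 others, 21 passed under at least 1 alternative. The alternatives were no filter, a filter at log2 6, eBayes without trend, only the compared groups, quantile normalization, median centring, array weights, the replicate block, an RNA-quality covariate, averaged probe sets of a gene and each array left out. An RNA-quality covariate without ACTB and leaving out 3D HGF replicates 1 and 4 together were chosen after seeing the data. Median centring moved the median of all genes by 0.10 for HGF in 3D, 0.12 for 3D against 2D with HGF and -0.13 for PD-98059 in 3D, and no member call turned with it. The replicate block added the THBS1 call for HGF in 2D (0.26, adjusted p = 0.0494) and turned CCN2 for U0126 in 3D (-0.045), neither a pair-supported comparison, and changed no other member call.

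The other signs that turned belong to differences that did not pass in the main fit, and the cause was not tested. FLNA turned for HGF in 3D with either covariate (-0.067, and -0.013 without ACTB) and the mean of probe sets (-0.10), and with single arrays left out lay between -0.113 and 0.115. For PD-98059 in 3D it was -0.052 (quantile), -0.12 (median centring), -0.0039 (array weights), -0.092 (mean of probe sets), -0.049 (without replicates 1 and 4) and -0.059 (covariate without ACTB), and between -0.053 and 0.057 with arrays left out. For PD-98059 against control FLNA was -0.030, -0.015, -0.062, -0.19 and -0.072 in 3D (quantile, median centring, covariate, mean of probe sets, covariate without ACTB; -0.10 to 0.13 with arrays left out), and in 2D 0.22 (array weights; -0.26 to 0.071). TPM4 in 3D against 2D with HGF was 0.038 (median centring), 0.069 (mean of probe sets) and 0.011 (without replicates 1 and 4), for U0126 against PD-98059 in 3D 0.024 (quantile) and 0.21 (mean of probe sets), and for PD-98059 against control in 2D -0.22 (mean of probe sets; -0.037 to 0.094 with arrays left out). ACTN1 in 3D against 2D with HGF was 0.023 and 0.028 (covariates), and for U0126 against PD-98059 in 3D -0.059 (quantile), -0.023 and -0.095 (covariates; -0.21 to 0.17). TAGLN in that comparison was 0.58 with the mean of probe sets (-0.26 to 0.22 with arrays left out). The CCN2 difference of HGF effects was 0.0014 (median centring) and 0.15 (without replicates 1 and 4; -0.19 to 0.175 with arrays left out). CCN2 for U0126 in 3D was -0.081 (median centring), -0.011 (array weights) and -0.20 (without replicates 1 and 4; -0.22 to 0.14), and 3D PD-98059 against 2D HGF was -0.39 with the covariate. THBS1 for U0126 against control in 2D was 0.074 (quantile), 0.017 (covariate) and 0.088 (mean of probe sets; -0.094 to 0.022 with arrays left out), and CCN1 in 3D against 2D with PD-98059 lay between -0.31 and 0.016.

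Counts that moved by more than 1.5 times were these. Genes that passed in 3D against 2D with HGF were 8760 with no filter, and members 3 with either covariate. For PD-98059 in 3D, genes were 1987 with only the compared groups. The actin list was 5 (quantile), 8 (median centring) and 5 (covariate without ACTB), and TGF-beta genes 3 (compared groups). For U0126 against PD-98059 in 3D, genes were 598 (no filter), 576 (compared groups), 2476 (array weights) and 421 to 1118 with arrays left out, and members 5 with the mean of probe sets. In 2D genes were 33 (compared groups), 247 (quantile), 249 (array weights), 229 and 222 (covariates), 205 (without replicates 1 and 4) and 82 to 191 with arrays left out, and members 1 with quantile normalization, array weights or the mean of probe sets (0 to 1). For U0126 against control in 2D, genes were 1999 with array weights, and members 2 with quantile normalization, array weights or the mean of probe sets (1 to 2 with arrays left out). In 3D against 2D control, TGF-beta genes were 3 with the covariate without ACTB.

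With single arrays left out, ACTN1 against control in 3D passed with PD-98059 without 3D control replicate 3 (-0.83) or 3D HGF replicate 4 (-0.67), and with U0126 without these (-0.82 and -0.67) or U0126 replicate 1 (-0.88). It passed in 3D against 2D with U0126 without 3D HGF replicate 4 (0.72) or 3D U0126 replicate 2 (0.88), and FLNA with U0126 against control in 2D without 2D control replicate 3 (0.62). ACTA2, TAGLN and ANKRD1 were below log2 5 in every 2D group, so signal near background limits what their 2D values can show.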
